A study of Mus musculus with 6 samples.

Results

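The protein-coding genes that flank Il22ra1 on mouse chromosome 4 were examined in cultured ovarian granulosa cells of Il22r-/- and Il22r+/+ mice. Il22ra1 encodes the ligand-binding chain of the interleukin-22 receptor, which signals through STAT3, and is taken here as the targeted gene, since the labels give the genotype only as Il22r. The set holds 116 of the 55860 genes of the deposited count table: those annotated as protein-coding, with a start between positions 130728172 and 140728172 of chromosome 4 (mm10, 5 Mb to either side of the Il22ra1 start at 135728172) and at least 60 reads summed over the 6 libraries. Of 173 protein-coding genes in that window, 45 had fewer reads, and 12 better-covered genes, among them Ifnlr1 and the C1q genes, are left out by name, so that statements here cover the 116 and not every gene of the window. The rule selected on position and on the sum of reads over both genotypes, and it was written, with its exceptions, when earlier results of these data were known. The genes just inside the limit were Rab42, Alpl and Cd52 with 60, 73 and 78 reads, and those just outside were Rhd, Kif17 and Ncmap with 53, 44 and 43.

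Each genotype had 3 libraries. The Il22r-/- libraries held 14.95 to 18.12 M reads (M, mega) assigned to genes and the Il22r+/+ libraries 17.43 to 17.7 M. Per the labels, cells were isolated from ovaries by density gradient and kept for 12 h in serum-containing medium, with the same protocol given for both genotypes. The sources used here give no age, strain, deleted exon or way the allele was made, and do not say whether libraries came from separate animals, so p-values measure only the spread between these libraries, which may be technical. The 10 granulosa markers listed summed to between 8847 and 9589 CPM in Il22r-/- libraries and between 7672 and 8651 CPM in Il22r+/+ libraries (CPM, counts per M reads after TMM scaling). Of the 9 markers tested, 5 were higher and 2 lower in Il22r-/-, so the sum does not show that granulosa genes were alike in both genotypes.

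A targeted allele is inherited together with the DNA beside it, and for this reason genes near a targeted locus are commonly looked at separately in comparisons of knockout and wild-type animals. The flanks of Il22ra1 are gene-dense and hold genes of widely used cell functions: splicing factors such as Srsf10 and Srrm1, chromatin proteins such as Arid1a and Kdm1a, cytoskeletal genes such as Cdc42, Capzb and Stmn1, and several genes with known parts in the ovary, among them Paqr7, a membrane receptor for progestins, and Gpr3, a receptor that keeps oocytes in meiotic arrest. Granulosa cells surround the oocyte and make steroid hormones. Genotypes of the flanking DNA were not measured in these data.

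Il22ra1 itself (ENSMUSG00000037157, 135728172 to 135752140, plus strand) had 5, 2 and 0 reads for replicates 1 to 3 of Il22r-/-, against 1, 5 and 4 for those of Il22r+/+. These numbers were too low for a test, and the targeted gene could not check the genotype labels.

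Of the 116 genes, all of which had enough reads for the test, 65 changed between the genotypes by edgeR's quasi-likelihood test at a Benjamini-Hochberg adjusted p under 0.05, 40 of them lower and 25 higher in Il22r-/-. That is 56.0% of the flanking genes, beside 45.7% of all 15227 genes tested, 49.5% of the 12707 tested protein-coding genes with at least 60 reads, and 49.5% of 675 such genes elsewhere on chromosome 4. Lower genes made up 34.5% of the flanking genes, against 22.1% of all genes tested, 24.6% of the protein-coding ones and 26.7% of those elsewhere on the chromosome. Higher genes made up 21.6%, against 23.6%, 24.9% and 22.8% of the same sets. These shares are a description, and none of the differences between them was tested. With library size as the only scaling, the median of all genes moved up by 0.10 on the log2 scale, and 50.8% of the flanking calls were higher in Il22r-/- in place of 38.5%, as were 63.6% in place of 51.6% of all calls.

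Most changes were modest. The median log2 change was -0.09 (Il22r-/- minus Il22r+/+) over the 116 genes and 0.03 over all genes tested, and the median size of change, up or down, was 0.36 in both. A change of at least 2-fold was called in 18 of the flanking genes (15.5%, against 14.3% of all genes tested, 13.5% of the protein-coding ones and 13.5% of those elsewhere on the chromosome). Of these, 11 were lower (9.48%, against 6.3%, 6.31% and 7.7% of the same sets) and 7 were higher (6.03%, against 8.03%, 7.22% and 5.78%). Of the 65 calls, 34 were smaller than 1.5-fold. The libraries of the genotypes did not overlap in 78 of the 116 genes (67.2%, against 56.0% of all genes tested, 59.7% of the protein-coding ones and 61.0% of those elsewhere on the chromosome). Reads on the 116 genes made up 0.847% to 0.885% of each Il22r-/- library and 0.816% to 0.829% of each Il22r+/+ library. Il22r-/- replicate 3 stood apart from replicates 1 and 2 on the second principal component of the 116 genes, which held 7.66% of their variance, and without it 73 of the 116 genes were called.

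**Figure D1:**
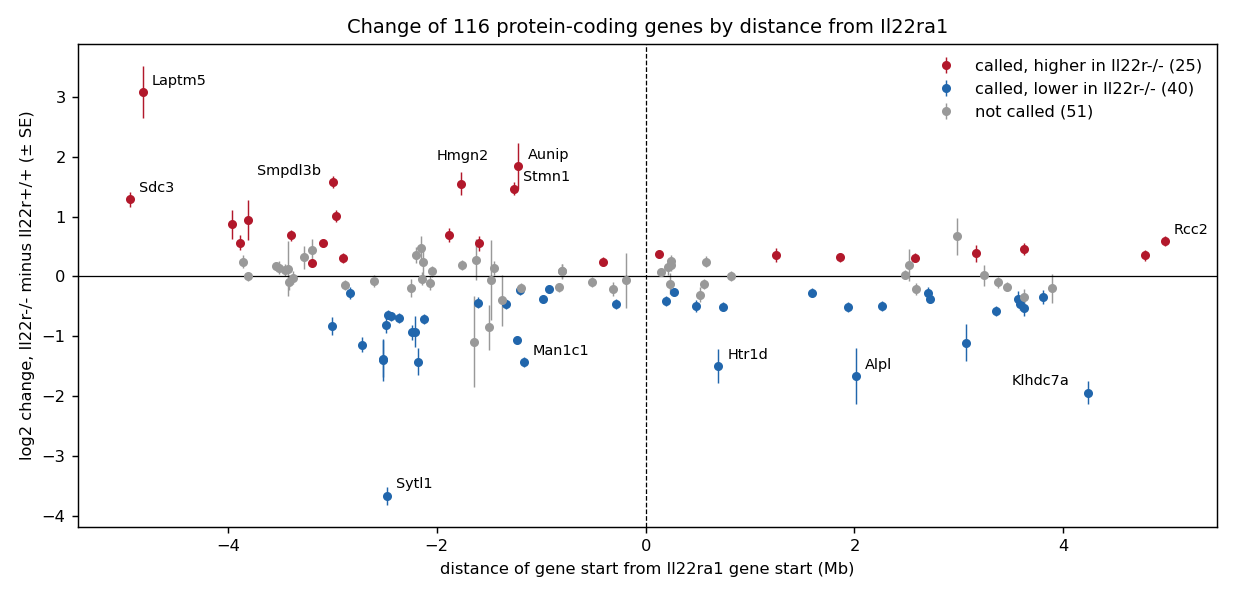
Log2 change of each of the 116 genes (vertical axis, Il22r-/- minus Il22r+/+, bars are standard errors of the fit) against the distance of its start from the Il22ra1 start (horizontal axis, Mb, negative towards lower coordinates). Red points are called higher (25), blue points called lower (40) and grey points not called (51), and 24 of the 25 points within 1 Mb stay under 1.5-fold, the exception being Htr1d.

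By distance, the members within 1 Mb of the Il22ra1 start had the smallest median size of change of the 5 bins, 0.21. Genes left out by name are in none of the bins. Of these 25 genes, 10 were called (8 lower, 2 higher), and 24 of the 25 changed by less than 1.5-fold. At 1 to 2 Mb, 14 of 22 genes were called, 7 in each direction. At 2 to 3 Mb, 21 of 34 were called, 17 lower and 4 higher. At 3 to 4 Mb, 15 of 30 were called, 7 lower and 8 higher, and all 5 genes at 4 to 5 Mb were called, 1 lower and 4 higher. Across the 116 genes, distance and size of change had a Spearman rho of 0.17 and a Pearson r of 0.19. Size of change was also related to level (rho -0.25), and genes within 1 Mb had a higher median level than the others, 58.9 against 31.3 CPM. All genes come from the same 6 libraries, so these correlations are given without a test. The side towards lower coordinates held 72 genes (22 lower, 17 higher) and the other side 44 (18 lower, 8 higher).

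**Figure D2:**
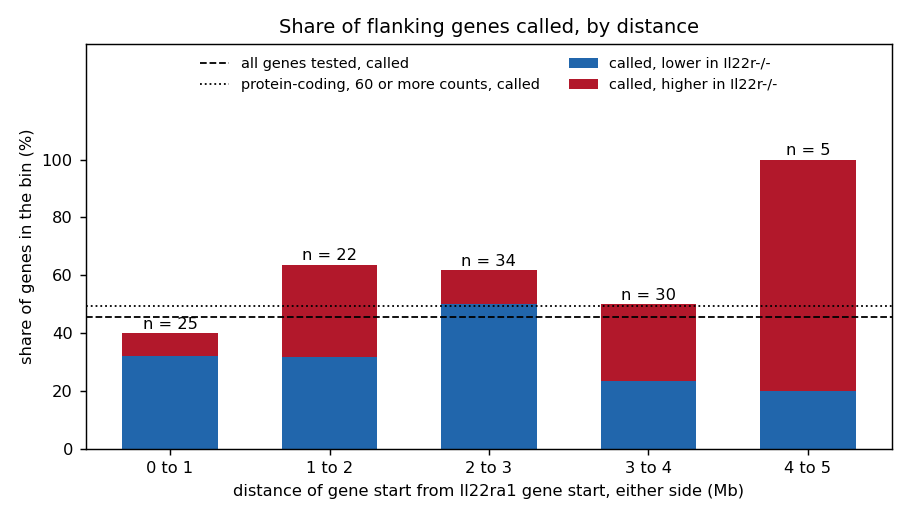
Share of genes called (vertical axis, percent) in each bin of distance from the Il22ra1 start (horizontal axis, Mb, both sides joined), with lower calls in blue, higher calls in red and the number of genes above each bar. The dashed line marks the 45.7% called among all genes tested and the dotted line the 49.5% among protein-coding genes with at least 60 reads; the bin nearest to Il22ra1 lies below both, at 40.0%, and the last bin holds 5 genes.

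The closest gene above Il22ra1 in the set, and the only one of the 16 nearest that was called higher by more than 1.2-fold, was Srsf10 (ENSMUSG00000028676, 135855747 to 135869908, plus strand), an SR-family splicing factor that starts 128 kb away. Srsf10 had 152, 152 and 147 CPM for replicates 1 to 3 of Il22r-/-, against 118, 111 and 118 CPM for those of Il22r+/+. Its libraries did not overlap between the genotypes, and it was 1.30-fold higher in Il22r-/- (log2 change 0.38 ± 0.07, adjusted p = 0.00110). The closest gene below in the set, 186 kb away, was Grhl3, an epithelial transcription factor with only 33, 9 and 17 reads for replicates 1 to 3 of Il22r-/-, against 20, 14 and 25 for those of Il22r+/+. The genotypes overlapped for Grhl3 (log2 change -0.06 ± 0.46, adjusted p = 0.920), and its sign turned positive with library size as the only scaling (log2 change 0.041), without Il22r-/- replicate 2 (0.29) and without Il22r+/+ replicate 3 (0.14).

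Among the other near genes, Nipal3, a relative of magnesium transporters 283 kb below, had 33.8, 31.3 and 28.9 CPM across Il22r-/- libraries, against 42.2, 44.8 and 42.4 CPM across Il22r+/+ ones. All 3 Il22r-/- values lay under all 3 Il22r+/+ values (log2 change -0.46 ± 0.09, adjusted p = 0.00171). Fuca1, the lysosomal alpha-L-fucosidase 193 kb above, had 70.7, 76.5 and 65.9 CPM across Il22r-/- libraries, against 103, 87.4 and 93.2 CPM across Il22r+/+ ones, again without overlap (log2 change -0.41 ± 0.09, adjusted p = 0.00292). Eloa, elongin A, a factor of transcript elongation, fell slightly (log2 change -0.26 ± 0.07, adjusted p = 0.0106), and the call ended with library size as the only scaling (adjusted p = 0.0736). An antisense gene, Gm13008, overlaps 10.8% of the Eloa exon length. Srrm1, a splicing coactivator, rose by 0.25 ± 0.08 on the log2 scale (adjusted p = 0.0297). Its call ended without Il22r-/- replicate 2 (adjusted p = 0.0521) and without Il22r+/+ replicate 1, 2 or 3 (0.118, 0.0731 and 0.104) and on log2(FPKM + 1) (0.0745).

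The other near genes described here did not pass the test. Pnrc2, which takes part in messenger RNA decay, had 111 ± 3.08 CPM on average for Il22r-/-, against 106 ± 3.20 CPM for Il22r+/+ (SD, n = 3 each). Clic4, an intracellular chloride channel protein, had 175 ± 13.5 CPM on average for Il22r-/-, against 186 ± 11.4 CPM for Il22r+/+, and its difference of -0.09 turned to 0.014 with library size as the only scaling. Rsrp1, the most abundant of the 16 per length, had 116 CPM per kb of transcript for Il22r-/-, against 109 for Il22r+/+, and its difference of 0.09 was -0.070 without Il22r-/- replicate 1. Tmem50a, Lypla2, Pithd1 and Rcan3, with log2 differences of -0.18, 0.19, 0.26 and -0.21, passed without Il22r-/- replicate 3 (adjusted p = 0.0409, 0.00833, 0.0402 and 0.00996). Tmem50a also passed with DESeq2 size factors (0.0458) and without Il22r-/- replicate 2 (0.0432). With library size as the only scaling, Lypla2 (0.0493) and Pithd1 (0.0170) passed as well. Syf2, a splicing factor, completed the list with 0.08, or -0.060 without Il22r-/- replicate 2.

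**Figure D3:**
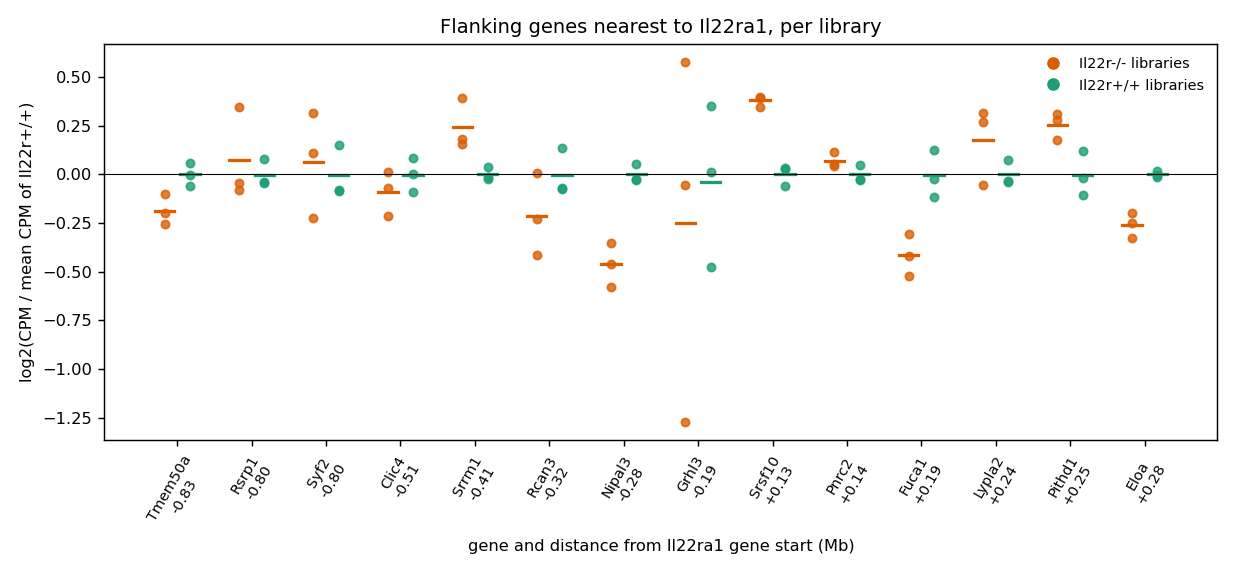
Log2 of CPM over the Il22r+/+ mean (vertical axis) in each library for 14 of the 16 genes nearest to Il22ra1 (horizontal axis, with the distance in Mb), Il22r-/- in orange on the left and Il22r+/+ in green on the right, lines being group means. Nipal3, Fuca1 and Eloa lie lower and Srsf10 and Srrm1 higher in all Il22r-/- libraries, Tmem50a (lower) and Pithd1 (higher) are apart too without passing the test, while Grhl3 scatters widely at its low counts.

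Beyond these 16 and within 1 Mb, Htr1d, a serotonin receptor gene 695 kb above Il22ra1, was the member with a change of at least 2-fold. It had 21, 31 and 33 reads for replicates 1 to 3 of Il22r-/-, against 70, 75 and 88 for those of Il22r+/+. No Il22r-/- library reached an Il22r+/+ library (log2 change -1.49 ± 0.28, adjusted p = 0.00143), at levels of 0.513 CPM per kb of transcript for Il22r-/-, against 1.44 for Il22r+/+. Luzp1, an actin-associated leucine zipper protein, fell (151 ± 7.17 CPM on average for Il22r-/-, against 215 ± 10.04 CPM for Il22r+/+, log2 change -0.51 ± 0.07, adjusted p = 0.000343), as did Asap3, an Arf GTPase-activating protein (log2 change -0.49 ± 0.10), while the histone demethylase Kdm1a had 169 ± 13.9 CPM on average for Il22r-/-, against 168 ± 7.31 CPM for Il22r+/+ and a difference of 0.01. Htr1d, Luzp1, Asap3 and Kdm1a were chosen after their values were seen.

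The largest fall among the 116 genes was that of Sytl1 (ENSMUSG00000028860, 133253090 to 133263113, minus strand), a synaptotagmin-like protein that binds Rab27 on secretory vesicles, 2.48 Mb below Il22ra1. It had 4.36, 6.67 and 4.20 CPM for replicates 1 to 3 of Il22r-/-, against 67.3, 62.9 and 63.7 CPM for those of Il22r+/+. Every Il22r-/- library held less than any Il22r+/+ library by a wide margin, and the gene was 12.6-fold lower in Il22r-/- (log2 change -3.66 ± 0.15, adjusted p = 1.02e-07). The 10 listed markers of ovarian surface epithelium and mesothelium, none of them at 0 in all libraries, summed to 184 to 200 CPM in Il22r-/- libraries against 550.4 to 557 CPM in Il22r+/+ libraries, with 6 of 9 tested markers lower and none higher. Their part in the fall of Sytl1 was not tested. In bulk samples, fewer cells of a type and less RNA per cell cannot be told apart.

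Sytl1 lay in the longest stretch of adjacent members called in 1 direction, 7 genes that were all lower in Il22r-/-. Gpr3, Cd164l2, Map3k6, Tmem222 and Wdtc1 were among them. Gpr3 had 15, 36 and 39 reads for replicates 1 to 3 of Il22r-/-, against 72, 79 and 81 for those of Il22r+/+, with the genotypes apart (log2 change -1.40 ± 0.35, adjusted p = 0.00783). The 5 listed oocyte markers summed to 0.525 to 2.94 CPM in Il22r-/- libraries and 1.43 to 1.54 CPM in Il22r+/+ libraries, and neither of the 2 tested was called. Map3k6, an upstream kinase of stress-activated MAP kinases, fell 1.76-fold (13.7 ± 1.07 CPM on average for Il22r-/-, against 24.1 ± 3.18 CPM for Il22r+/+). Wdtc1, a substrate receptor of a ubiquitin ligase, fell 1.59-fold (133 ± 10.3 CPM on average for Il22r-/-, against 211 ± 5.34 CPM for Il22r+/+). Leaving Sytl1 aside, the log2 changes in this stretch ran from -1.40 to -0.64.

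Over the wider segment from 2 to 2.6 Mb below Il22ra1, 11 of 19 members were lower, none was higher and 8 were not called. Beyond that stretch, the lower ones were Trnp1, Kdf1, Nr0b2 and Zdhhc18. Nr0b2, the orphan nuclear receptor SHP that represses other nuclear receptors, had 4.52, 3.57 and 3.35 CPM across Il22r-/- libraries, against 12.2, 7.52 and 11.1 CPM across Il22r+/+ ones. Even its highest Il22r-/- value lay under the lowest Il22r+/+ value (log2 change -1.42 ± 0.22, adjusted p = 0.000430). Trnp1, a nuclear protein studied in neural progenitors, had 10.8 ± 1.30 CPM on average for Il22r-/-, against 20.7 ± 0.622 CPM for Il22r+/+ (log2 change -0.94 ± 0.12, adjusted p = 0.000157), and Zdhhc18, a Golgi palmitoyltransferase, fell 1.64-fold. Genes that were not called lay between them, such as Gpn2 (20.8 ± 0.740 CPM on average for Il22r-/-, against 21.4 ± 2.00 CPM for Il22r+/+). Pigv of glycosylphosphatidylinositol anchor synthesis (log2 difference -0.11) was not called and lay nearer to Il22ra1 than all the lower genes of the segment. So did Arid1a, a subunit of the BAF chromatin remodelling complex (208 ± 22.7 CPM on average for Il22r-/-, against 196 ± 9.65 CPM for Il22r+/+), which was not called either. The log2 differences of the 8 not called ran from -0.19 (Tent5b) to 0.47 (Gpatch3, adjusted p = 0.0705). All Il22r-/- libraries of Gpatch3 lay above all Il22r+/+ ones, and Nudc had a difference of 0.36 (adjusted p = 0.0520). The segment was picked after its values were seen and was given no test. Beside its counts stand the shares over all 116 genes, 34.5% lower and 21.6% higher. Over all genes tested, 22.1% were lower and 23.6% higher.

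**Figure D4:**
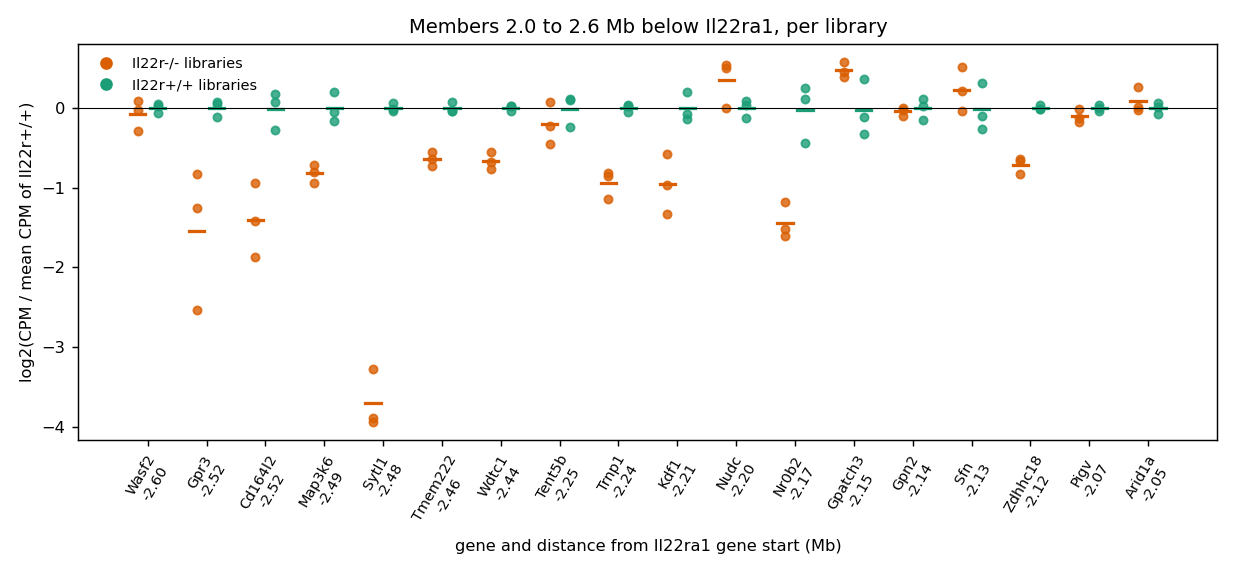
Log2 of CPM over the Il22r+/+ mean (vertical axis) in each library for 18 of the 19 members between 2 and 2.6 Mb below Il22ra1 (horizontal axis, in order along the chromosome), Il22r-/- in orange on the left and Il22r+/+ in green on the right, lines being group means. Of these, 10 genes are called lower and lie lower in all Il22r-/- libraries, Sytl1 furthest. Genes whose groups overlap, such as Tent5b, Nudc and Gpn2, lie among them, and Pigv and Arid1a, which overlap too, lie at the end nearest to Il22ra1. Gpatch3 lies higher in all Il22r-/- libraries without passing the test.

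Over the whole window, 65 of 115 pairs of adjacent members (56.5%) had log2 changes of the same sign, where 52 of the 116 genes had a positive one. In 38 adjacent pairs both genes were called, 24 of them in the same direction. Other runs of at least 3 adjacent calls included Sdc3, Laptm5, Ptpru and Mecr (higher), Smpdl3b, Rpa2 and Ppp1r8 (higher), and Rap1gap, Alpl and Eif4g3 (lower). Pairs and runs were not tested, and no such counts were made for other parts of the genome, so they are a description only.

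Head-to-head neighbours, whose transcripts start from opposite strands within 1000 bases of each other, gave a closer view, because a single stretch of promoter DNA faces both genes. Pqlc2, a lysosomal exporter of cationic amino acids, and Akr7a5, an aldehyde reductase, start 36 bases apart and Mrto4, a ribosome assembly factor, and Emc1, a subunit of the membrane protein insertase of the endoplasmic reticulum, start 11 bases apart. The promoter windows of Akr7a5 (chr4:139310494-139310793) and Emc1 (chr4:139352337-139352636), from RefSeq on GRCm38.p6, the same assembly as mm10, are printed on the plus strand, because the first pair moved together and the second apart. Capitals mark the bases from the start of the minus-strand gene to the start of the plus-strand gene.
Pqlc2/Akr7a5: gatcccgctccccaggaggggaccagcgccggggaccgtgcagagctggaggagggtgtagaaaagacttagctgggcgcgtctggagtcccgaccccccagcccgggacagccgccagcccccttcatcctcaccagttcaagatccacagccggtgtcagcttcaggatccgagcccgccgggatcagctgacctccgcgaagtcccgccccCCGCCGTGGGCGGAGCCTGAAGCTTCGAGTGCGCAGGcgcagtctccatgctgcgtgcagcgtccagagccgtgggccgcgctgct
Mrto4/Emc1: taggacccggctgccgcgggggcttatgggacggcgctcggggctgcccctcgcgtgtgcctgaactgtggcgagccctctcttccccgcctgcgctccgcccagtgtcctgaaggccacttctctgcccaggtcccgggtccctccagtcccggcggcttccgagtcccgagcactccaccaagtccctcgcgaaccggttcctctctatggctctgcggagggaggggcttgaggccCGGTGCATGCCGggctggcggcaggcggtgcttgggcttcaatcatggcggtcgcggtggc
Neither window held CCAAT or TATAAA on either strand, and GGGCGG occurred 2 times in the first and 1 time in the second.

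Both genes of the first pair were lower in Il22r-/-. Akr7a5 had 37.3, 31.8 and 36.8 CPM across Il22r-/- libraries, against 45.9, 49.1 and 50.9 CPM across Il22r+/+ ones (log2 change -0.46 ± 0.09, adjusted p = 0.00192), with no overlap. Pqlc2 had 13.02, 11.4 and 15.2 CPM across Il22r-/- libraries, against 18.2, 15.5 and 17.7 CPM across Il22r+/+ ones (log2 change -0.38 ± 0.14, adjusted p = 0.0430). The highest Il22r-/- value of Pqlc2 was just under the lowest Il22r+/+ value, and its call ended without Il22r-/- replicate 1 or 2 (adjusted p = 0.0792 and 0.144), without Il22r+/+ replicate 1 or 3 (0.143 and 0.119) and with library size as the only scaling (0.118). In the second pair, Mrto4 had 39.8, 40.1 and 32.1 CPM across Il22r-/- libraries, against 27.6, 27.5 and 26.2 CPM across Il22r+/+ ones and rose (log2 change 0.46 ± 0.10, adjusted p = 0.00432). Emc1 had 50.9, 60.5 and 78.2 CPM across Il22r-/- libraries, against 85.4, 92.1 and 94.9 CPM across Il22r+/+ ones and fell (log2 change -0.53 ± 0.14, adjusted p = 0.0124). Their libraries did not overlap in either case, and the changes had opposite signs. The antisense gene 2700016F22Rik overlaps 29.3% of the Emc1 exon length, and the sources used here do not give the strand setting of the read counting, so their reads cannot be told apart. Gpr3 and Cd164l2 are also head to head in the deposited annotation, where their 5' ends overlap by 405 bases. The nearest RefSeq start of Cd164l2 lies 8678 bases away, and both genes fell by similar amounts (-1.40 ± 0.35 and -1.37 ± 0.30 on the log2 scale). Gpr3 overlaps 11.2% of the Cd164l2 exon length on the other strand, where the reads of these genes cannot be told apart either. Ubr4, a ubiquitin ligase, is annotated to start beside Emc1 as well, but its nearest RefSeq start lies 28050 bases away. It had 409.8 ± 76.1 CPM on average for Il22r-/-, against 518 ± 54.7 CPM for Il22r+/+ and did not pass (adjusted p = 0.0579), although it passed by the DESeq2 Wald test (0.0246), with no filter (0.000955) and without Il22r-/- replicate 3 (0.000202).

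RefSeq promoter windows (250 bases before to 50 after the start) matched 102 of the 116 genes. The GC box GGGCGG, searched on both strands, was in 66.7% of them and in 65.7% of the windows of 10050 expressed protein-coding genes. CCAAT was in 41.2% and 39.1%, and TATAAA in 8.82% and 6.75%, no motif containing another. The palindrome TTCNNNGAA, the core to which STAT factors bind, was in 4 of the 102 windows (3.92%), against 6.66% of expressed protein-coding genes and 8.47% of all 27025 windows. It was in 3 of 34 windows of lower genes, 0 of 23 of higher genes and 1 of 45 of genes not called. For the 102 genes the window nearest to the deposited start was taken, and for the other sets the first listed per gene, so the shares are not fully alike. These matches describe letters only.

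Genes of RNA processing within the flanks, 13 in all, had 5 members that rose and none that fell, with a median log2 change of 0.25. Besides Srsf10, Srrm1 and Mrto4, the higher ones were Ppp1r8, a nuclear inhibitor of protein phosphatase 1, and the splicing-associated cochaperone Dnajc8. Ppp1r8 had 52.3 ± 2.91 CPM on average for Il22r-/-, against 42.2 ± 2.28 CPM for Il22r+/+ (log2 change 0.31 ± 0.08, adjusted p = 0.0106), and its call ended without Il22r-/- replicate 2 (adjusted p = 0.052) and without Il22r+/+ replicate 1 or 2 (0.0553 and 0.0526). The other 8, among them Hnrnpr, Ythdf2 and Srsf4, did not pass, with differences between -0.10 and 0.47. This list, like those below, was drawn up with earlier results of these data known, so its direction is a description. Beside its counts and those of the lists below stand the shares over all 116 genes, 21.6% higher and 34.5% lower. Over all genes tested, these shares were 23.6% and 22.1%.

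Of 17 chromatin and transcription genes, 6 rose, 3 fell and 8 did not pass. The largest rise was that of Hmgn2 (ENSMUSG00000003038, 133964738 to 133968650, minus strand), a nucleosome-binding protein with many processed copies in the genome whose reads the counting may not separate. It had 104, 96.3 and 63.1 CPM for replicates 1 to 3 of Il22r-/-, against 27.9, 34.5 and 27.8 CPM for those of Il22r+/+. Il22r-/- replicate 3 was the lowest of its group but still above every Il22r+/+ library (log2 change 1.55 ± 0.19, adjusted p = 0.000385). Rpa2, part of the single-strand DNA-binding complex of replication, had 24.2, 27.2 and 25.6 CPM across Il22r-/- libraries, against 12.4, 12.5 and 13.4 CPM across Il22r+/+ ones (log2 change 1.01 ± 0.10, adjusted p = 3.34e-05). Rcc1, the nucleotide exchange factor of Ran, rose 1.61-fold, and Rcc2, which acts at the mitotic spindle and lies at the far edge of the window, 1.51-fold, with 368 ± 17.6 CPM on average for Il22r-/-, against 244 ± 13.4 CPM for Il22r+/+. Against these, Ahdc1, an AT-hook DNA-binding protein, had 50.1, 46.4 and 68.9 CPM across Il22r-/- libraries, against 121, 123 and 118 CPM across Il22r+/+ ones and fell 2.20-fold (log2 change -1.14 ± 0.13, adjusted p = 0.000112). The phosphatase and transcriptional coactivator Eya3 and the zinc finger gene Zbtb40 made up the 6 that rose, and Nr0b2 and Eloa, given above, the 3 that fell.

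Genes listed under cytoskeleton, adhesion and matrix were split, 5 higher, 5 lower and 6 not called of 16. Stmn1 (ENSMUSG00000028832, 134468320 to 134473843, plus strand), stathmin, which destabilises microtubules, had 327, 315 and 245 CPM for replicates 1 to 3 of Il22r-/-, against 99.8, 113 and 107 CPM for those of Il22r+/+. It was 2.77-fold higher in Il22r-/- without overlap (log2 change 1.47 ± 0.11, adjusted p = 4.03e-06), at 154 CPM per kb of transcript for Il22r-/-, against 55.6 for Il22r+/+. Sdc3, a cell surface heparan sulphate proteoglycan at the lower edge of the window, had 197, 154 and 149 CPM across Il22r-/- libraries, against 72.00, 75.01 and 58.1 CPM across Il22r+/+ ones (log2 change 1.29 ± 0.13, adjusted p = 4.39e-05). Ptpru, a receptor-type tyrosine phosphatase, rose 1.83-fold (adjusted p = 0.0131, and 0.0521 without Il22r+/+ replicate 3). The centrosomal gene Cep85 and the guanine nucleotide exchange factor gene Arhgef10l also rose (log2 change 0.55 ± 0.12 and 0.35 ± 0.09). Of the lower members, Luzp1, Asap3, Sh3bgrl3 and Iffo2 had log2 changes between -0.51 and -0.34. Nbl1, a secreted protein whose place on this list is loose, had -0.57. Ubxn11 overlaps 22.9% of the Sh3bgrl3 exon length on the other strand, and Gm21969 15.0% of that of Iffo2 on the same strand. Capzb, the beta subunit of the actin capping protein, had 284 ± 10.1 CPM on average for Il22r-/-, against 320.3 ± 10.1 CPM for Il22r+/+ and did not pass (adjusted p = 0.0824), but passed by the DESeq2 Wald test (0.038), on log2(FPKM + 1) (0.0492) and without Il22r-/- replicate 3 (0.0352). Cdc42, a small GTPase of cell polarity, was on none of the lists and was the most abundant member per length, with 183 CPM per kb of transcript for Il22r-/-, against 221 for Il22r+/+ (log2 change -0.27 ± 0.08, adjusted p = 0.0159). Its call ended without Il22r-/- replicate 2 (0.056), without Il22r+/+ replicate 2 or 3 (0.057 and 0.0669) and with library size as the only scaling (0.0948).

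**Figure D5:**
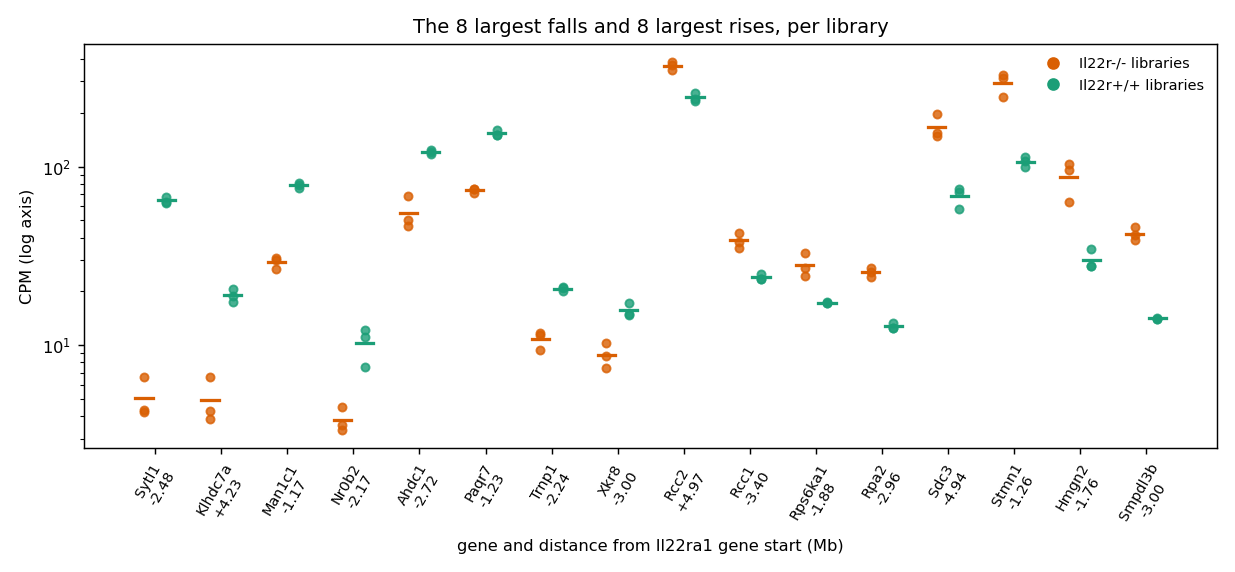
CPM in each library (vertical axis, log scale) for the 8 largest falls and 8 largest rises among called members whose groups do not overlap and whose mean reaches 5 CPM (horizontal axis, ordered by change, with distance in Mb), Il22r-/- in orange on the left and Il22r+/+ in green on the right, lines being group means. Sytl1 and Klhdc7a show the widest gaps among the falls, and Smpdl3b, Hmgn2 and Stmn1 among the rises; the separation of the groups is part of how the genes were picked.

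Secretory, lysosomal and glycosylation genes fell more often than they rose, 6 against 2 of 15, with 7 not called. Over all 116 genes, 34.5% were lower and 21.6% higher, against 22.1% and 23.6% of all genes tested. Smpdl3b (ENSMUSG00000028885, 132732966 to 132757252, minus strand), a lipid-anchored phosphodiesterase related to acid sphingomyelinase, had 38.9, 45.7 and 41.6 CPM for replicates 1 to 3 of Il22r-/-, against 14.04, 14.3 and 14.04 CPM for those of Il22r+/+. The Il22r+/+ libraries were nearly equal, and the gene was 2.98-fold higher in Il22r-/- (log2 change 1.58 ± 0.10, adjusted p = 1.14e-06). Man1c1, a Golgi alpha-mannosidase that trims N-glycans, moved the other way, with 26.7, 30.7 and 29.8 CPM across Il22r-/- libraries, against 78.8, 81.1 and 75.4 CPM across Il22r+/+ ones (log2 change -1.43 ± 0.08, adjusted p = 6.85e-07). Ddost, a subunit of the oligosaccharyltransferase that attaches N-glycans, had 228, 260.2 and 236 CPM across Il22r-/- libraries, against 197, 199 and 187 CPM across Il22r+/+ ones and rose (log2 change 0.31 ± 0.08, adjusted p = 0.00791). Zdhhc18, Tmem222, Emc1 and Fuca1, given above, were also among those that fell (Tmem222 with a log2 change of -0.64 ± 0.08).

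Of 8 mitochondrial genes, 1 rose, 2 fell and 5 did not pass. Mecr, an enzyme of mitochondrial fatty acid synthesis, had 27.8, 23.96 and 21.1 CPM across Il22r-/- libraries, against 17.7, 16.2 and 15.4 CPM across Il22r+/+ ones (log2 change 0.57 ± 0.12, adjusted p = 0.00377). Mul1, a ubiquitin ligase of the outer membrane, and Mtfr1l, a regulator of mitochondrial shape, had log2 changes of -0.28 ± 0.10 and -0.23 ± 0.08 (adjusted p = 0.0457 and 0.0446). Both calls ended without Il22r-/- replicate 2 and when any 1 of the Il22r+/+ libraries was left out, that of Mul1 also without Il22r-/- replicate 3 (adjusted p = 0.0506 to 0.177 for Mul1 and 0.0602 to 0.165 for Mtfr1l), and with library size as the only scaling (0.202 and 0.237). Pink1, the kinase that marks damaged mitochondria, had 56.6 ± 8.32 CPM on average for Il22r-/-, against 65.5 ± 3.27 CPM for Il22r+/+ and did not pass.

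Ubiquitin and kinase signalling genes numbered 16, of which 6 fell, 3 rose and 7 did not pass. Rps6ka1, a kinase downstream of ERK, had 24.3, 27.00 and 32.9 CPM across Il22r-/- libraries, against 17.2, 17.5 and 17.2 CPM across Il22r+/+ ones (log2 change 0.69 ± 0.12, adjusted p = 0.00104). Usp48, a deubiquitinase, had 279 ± 8.66 CPM on average for Il22r-/-, against 224 ± 9.65 CPM for Il22r+/+ (log2 change 0.32 ± 0.07), and the third to rise was Otud3. Besides Map3k6 and Wdtc1, the lower genes included Rap1gap, which switches off the GTPase Rap1, Eif4g3, a translation initiation factor, and Camk2n1, an inhibitor of CaM kinase II, with log2 changes of -0.51, -0.50 and -0.37.

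Of the 8 genes listed as leucocyte-expressed, 3 were members. Laptm5, a lysosomal membrane protein of blood-lineage cells, had 43, 93 and 37 reads for replicates 1 to 3 of Il22r-/-, against 5, 7 and 7 for those of Il22r+/+. Every Il22r-/- library exceeded every Il22r+/+ library (log2 change 3.08 ± 0.43, adjusted p = 0.000231), and this was the largest rise among the 116 genes. The 10 listed macrophage markers summed to 26.7 to 71.6 CPM in Il22r-/- libraries against 10.2 to 12.1 CPM in Il22r+/+ libraries, with 7 of 8 tested markers higher and none lower, and none at 0 in all libraries. The part of macrophages in the level of Laptm5 was not tested. Over replicates 1 to 3 of Il22r-/-, the marker sums were 50.8, 71.6 and 26.7 CPM and the Laptm5 values 2.26, 4.96 and 2.43 CPM. Xkr8, a phospholipid scramblase of dying cells, was lower in Il22r-/-, with 10.2, 8.75 and 7.42 CPM across Il22r-/- libraries, against 15.03, 14.7 and 17.3 CPM across Il22r+/+ ones (log2 change -0.83 ± 0.15, adjusted p = 0.00114). Each Il22r+/+ value of Xkr8 exceeded the macrophage marker sums of those libraries, and its fall is not read as one of leucocytes. Cd52, a small glycoprotein of lymphocytes, had 16, 10 and 0 reads for replicates 1 to 3 of Il22r-/-, against 7, 22 and 23 for those of Il22r+/+ and did not pass.

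The 28 members on none of these lists held 17 that fell and 2 that rose, where 34.5% of the 116 genes were lower and 21.6% higher. Of all genes tested, 22.1% were lower and 23.6% higher. Paqr7 (ENSMUSG00000037348, 134496697 to 134510235, plus strand), the membrane progestin receptor alpha, through which progesterone acts at the cell surface, had 71.3, 75.1 and 74.6 CPM for replicates 1 to 3 of Il22r-/-, against 151, 150.4 and 159.8 CPM for those of Il22r+/+. Its values were close within each genotype, and it was 2.09-fold lower in Il22r-/- (log2 change -1.06 ± 0.07, adjusted p = 1.43e-06). Klhdc7a, a kelch-domain gene 4.23 Mb above Il22ra1, had 6.62, 4.27 and 3.88 CPM across Il22r-/- libraries, against 18.9, 20.5 and 17.5 CPM across Il22r+/+ ones and was 3.83-fold lower (log2 change -1.94 ± 0.19, adjusted p = 2.39e-05). Aunip, a partner of Aurora kinase A chosen after its values were seen, was the larger of the 2 rises (114, 105 and 55 reads for replicates 1 to 3 of Il22r-/-, against 41, 14 and 17 for those of Il22r+/+, log2 change 1.84 ± 0.38).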

How the data were processed

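Deposited tables held raw read counts and FPKM for 6 libraries. Per the submitters' processing notes, the authors' counts came from featureCounts 1.5.0-p3 on mm10; the aligner is not given in the sources used here, nor are strand setting or filters. Deposited FPKM equalled count over length divided by 1 constant per library, 0.936 to 1.05 times the library total, and served only as an alternative. Counts were filtered (filterByExpr, 15227 genes), TMM-scaled and fitted in edgeR 4.0.16 (R 4.3.3; robust glmQLFit, glmQLFTest, genotype only), with Benjamini-Hochberg adjustment over all tested genes. Log2 changes are Il22r-/- minus Il22r+/+, errors are standard errors implied by the test, and group values are mean ± SD. Rows without a gene symbol held 0.274% of reads and were kept. The fit was also checked on simulated data with known changes. Alternatives were DESeq2 1.42.0, limma 3.58.1 (voom, log2 FPKM), other scalings and filters, a replicate block and each library left out. Members and lists were chosen with earlier results of these data known. Named genes were the 8 nearest on each side, the 8 largest changes each way (called, at least 5 CPM, no overlap), up to 3 called per list, head-to-head pairs and the 5 most abundant per length; a few of these are not reported here, and others are said to be chosen after seeing values or complete a list. Positions matched GENCODE M21 for 115 of 116 genes.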

Additional observations from a re-analysis of the deposited data

How the results depend on the processing

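The number of flanking genes called was 65 in the main analysis and lay between 64 and 67 with limma-voom, DESeq2 size factors, the DESeq2 Wald test, library size alone, either filter and both FPKM scales. It was 62 of 106 with a minimum of 200 reads in place of 60. A minimum of 20 could not alter it, because no protein-coding gene of the window with fewer than 60 reads was in the fit. With the replicate block, 59 were called (6405 of all genes), although same-numbered libraries share only a number (their deviations had correlations of -0.0575 to 0.0375). Of the named genes, Srrm1 (adjusted p = 0.0567) and Mtfr1l (0.0625) lost their call with the block, and no other named call changed. Leaving out 1 library gave 52 to 73 calls, and 47 of the 65 calls held in all 6 of these fits; over all genes the range was 5411 to 8243. Calls at 3 to 4 Mb ran from 9, without Il22r+/+ replicate 1, to 17, without Il22r-/- replicate 3, with 15 in all libraries. Measuring distance between gene bodies moved no bin by over 1.5 times. Of 48 named genes, 30 kept direction and side of the threshold in every alternative run; over 720 single values, 33 lost and 15 gained a call and 6 turned sign. Signs turned only for genes not called: with library size alone, Grhl3 (0.041) and Clic4 (0.014), and, leaving out 1 library, Grhl3 (-0.57 to 0.29), Rsrp1 (-0.070 to 0.14) and Syf2 (-0.060 to 0.19), all log2 differences; the cause was not tested. No named call moved by over 1.5 times without 1 library. Protein-coding genes of the window with fewer than 60 reads, Il22ra1 included, were too low for the test at this depth.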

Other observations

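The same window held 153 rows that are not annotated as protein-coding, of which 63 had a read and 11 were tested, 1 higher and 1 lower in Il22r-/-. The higher one was Snhg12, a host gene of small nucleolar RNAs, with 207, 243 and 110 reads for replicates 1 to 3 of Il22r-/-, against 91, 110 and 107 for those of Il22r+/+ (log2 change 0.77 ± 0.21, edgeR quasi-likelihood adjusted p = 0.0133). Il22r-/- replicate 3 had about as many reads as the Il22r+/+ libraries. The lower one was an unnamed row 2.63 Mb below Il22ra1, with 30, 29 and 30 reads for Il22r-/-, against 96, 145 and 119 for Il22r+/+ (log2 change -2.07 ± 0.24, adjusted p = 6.26e-05). The pseudogene Gm12989, which starts closer to Il22ra1 than any of the 116 genes, had 108, 102 and 78 reads for Il22r-/-, against 67, 66 and 79 for Il22r+/+ and did not pass (adjusted p = 0.12). These rows were looked at after the data were seen. None of the 45 protein-coding genes of the window with under 60 reads entered the test, and 13 of them had no read in any library.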
